A study of Salvelinus alpinus with 144 samples.

Results

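Mitochondrial ribosomal protein genes were followed in whole embryos of Arctic charr (Salvelinus alpinus) from Lake Thingvallavatn. The members are all rows of the mRNA table whose symbol starts with mrpl or mrps and a number and which held at least 10 reads over the 72 libraries. This gave 42 genes among 40311 rows with that many reads, out of 42433 rows in all. Many charr genes carry only a number as symbol (LOC symbols), and members of the family among those could not be identified. The set may therefore be incomplete. By their products' places in the mammalian ribosome, 28 belong to the large subunit and 14 to the small subunit, and mrps30, in spite of its name, was counted with the large subunit. The embryos came from crosses between wild small benthic (SB) and planktivorous, limnetic (PL) charr, named with the mother first. The cross types were the hybrids PLxSB and SBxPL and the pure crosses SBxSB and PLxPL. Each had 3 families, with 3 siblings per family at 200 and 3 at 150 tau-somite units (τs), so that each of the 8 groups held 9 embryos. All eggs were reared in 1 common hatching tray at low temperature in the dark. The pharyngeal skeleton starts to form at 150 τs, and at 200 τs most head cartilages are present and some bones begin to ossify. Each family is the offspring of wild-caught parents. Siblings therefore share parents, and the sources used here do not say whether families of different cross types share a parent.

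Mitochondria carry their own ribosomes, which translate the few respiratory chain subunits encoded in the mitochondrial DNA. The ribosomal RNA of these particles comes from the mitochondrial genome, but all their proteins are encoded in the nucleus, made in the cytosol and imported. Some of the proteins descend from bacterial ribosomal proteins, such as the stalk and exit-tunnel proteins, and others occur only in mitochondria. Of the 42 members, 28 are of the first kind and 14 of the second. The tissues of an embryo that grow fast or work hard need many of these ribosomes, so changes in a whole embryo can mix several tissues.

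Library totals lay between 11969598 and 17133123 counts (median 15922750), and no column was identical to another. The label of a whole embryo could be checked only for muscle, cartilage and liver, whose markers myog, matn1 and fgb were present, since no heart, nerve or blood marker of the lists used was found by symbol. Among 1749 rows that could be placed by symbol on 34 chromosomes of the RefSeq assembly SLU_Salpinus.1, the median deviation of a chromosome from the other embryos of the group was computed for all 2448 pairs of embryo and chromosome. In 5 pairs this median was below -0.5 on the log2 scale, and all 5 lay in 3 embryos of SBxSB family 3. The other pairs lay between -0.43 and 0.36, and none was above 0.5. These 3 embryos bear on 4 members, as given below, and the counts were also taken without them.

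**Figure D1:**
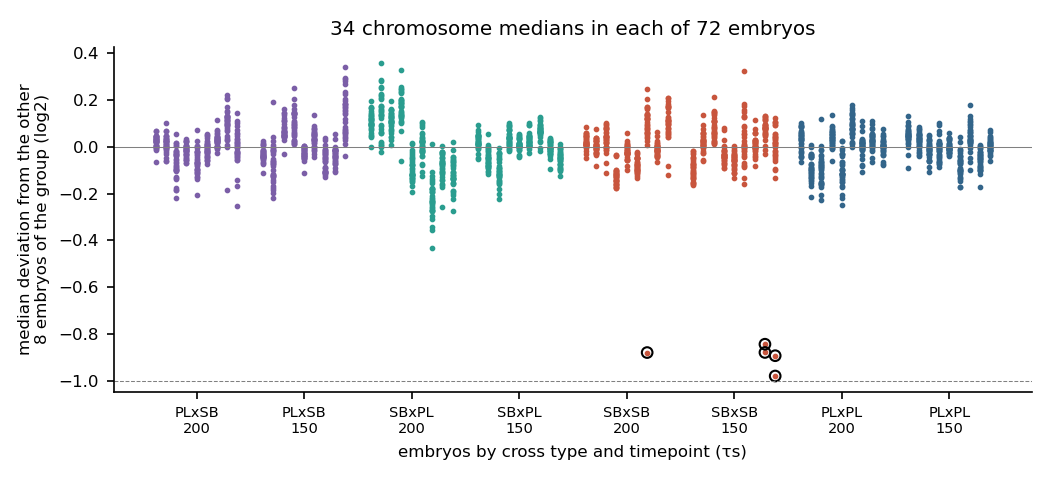
Median deviation of the rows of each chromosome from the other 8 embryos of the group (log2 scale, y axis), with 1 column of 34 points for each of the 72 embryos (x axis, in groups of 9). The dashed line is drawn at -1. The 5 circled points, from -0.98 to -0.84, belong to embryos A at 200 τs and B and C at 150 τs of SBxSB family 3.

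Most members were read at moderate levels, which differed between genes. Mean CPM (TMM-scaled counts relative to the library total, not divided by gene length, so that levels do not rank the genes by abundance) ran from 2.16 to 73.5 with a median of 35.5, and 40 of the 42 members averaged at least 8 CPM. The highest mean CPM were those of mrpl11 (73.5), a protein of the region where translation factors bind, of mrpl3 (72.3), a protein of the large subunit, and of mrps31 (64.6), a protein of the small subunit head. The lowest were those of mrpl33 (12.8), mrpl58 (7.30), a peptidyl-tRNA hydrolase that rescues stalled ribosomes, and mrpl46 (2.16), a protein found only in mitochondria. In mrpl46 this is a mean of 33.5 reads per library, so that its values carry the largest counting error of the set.

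Between the timepoints, the members fell, and none rose. In PLxPL, 32 of 42 members (76.2%) were lower at 200 than at 150 τs, in SBxPL 28 (66.7%), in PLxSB 20 (47.6%) and in SBxSB 17 (40.5%), at an adjusted p under 0.1 in edgeR's quasi-likelihood test over all 40311 rows. The median log2 fold change of the members, 200 over 150 τs, was -0.30 in PLxPL, -0.27 in SBxPL, -0.17 in PLxSB and -0.17 in SBxSB. Of all rows tested, 23.8% fell in PLxPL, 24.6% in SBxPL, 21.1% in PLxSB and 22.6% in SBxSB. The shares of rows that rose were 25.5% in PLxPL, 24.9% in SBxPL, 23.2% in PLxSB and 23.3% in SBxSB, against 0 of the 42 members in each. Rows with an average over 8 CPM, the range of most members, fell more often, namely 39.8% of them in PLxPL, 41.8% in SBxPL, 35.5% in PLxSB and 38.1% in SBxSB, with medians of -0.11, -0.13, -0.10 and -0.11 in that order. Read against these rows, the share of members that fell was higher in PLxPL and SBxPL, and in PLxSB and SBxSB it lay nearer to the background. Without the 3 embryos of SBxSB family 3 that stand apart, 20 members (47.6%) fell in SBxSB, beside 35.6% of rows over 8 CPM. Differences between the cross types in these shares were not tested. In a whole embryo, fewer cells of a type and less RNA per cell cannot be told apart.

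**Figure D2:**
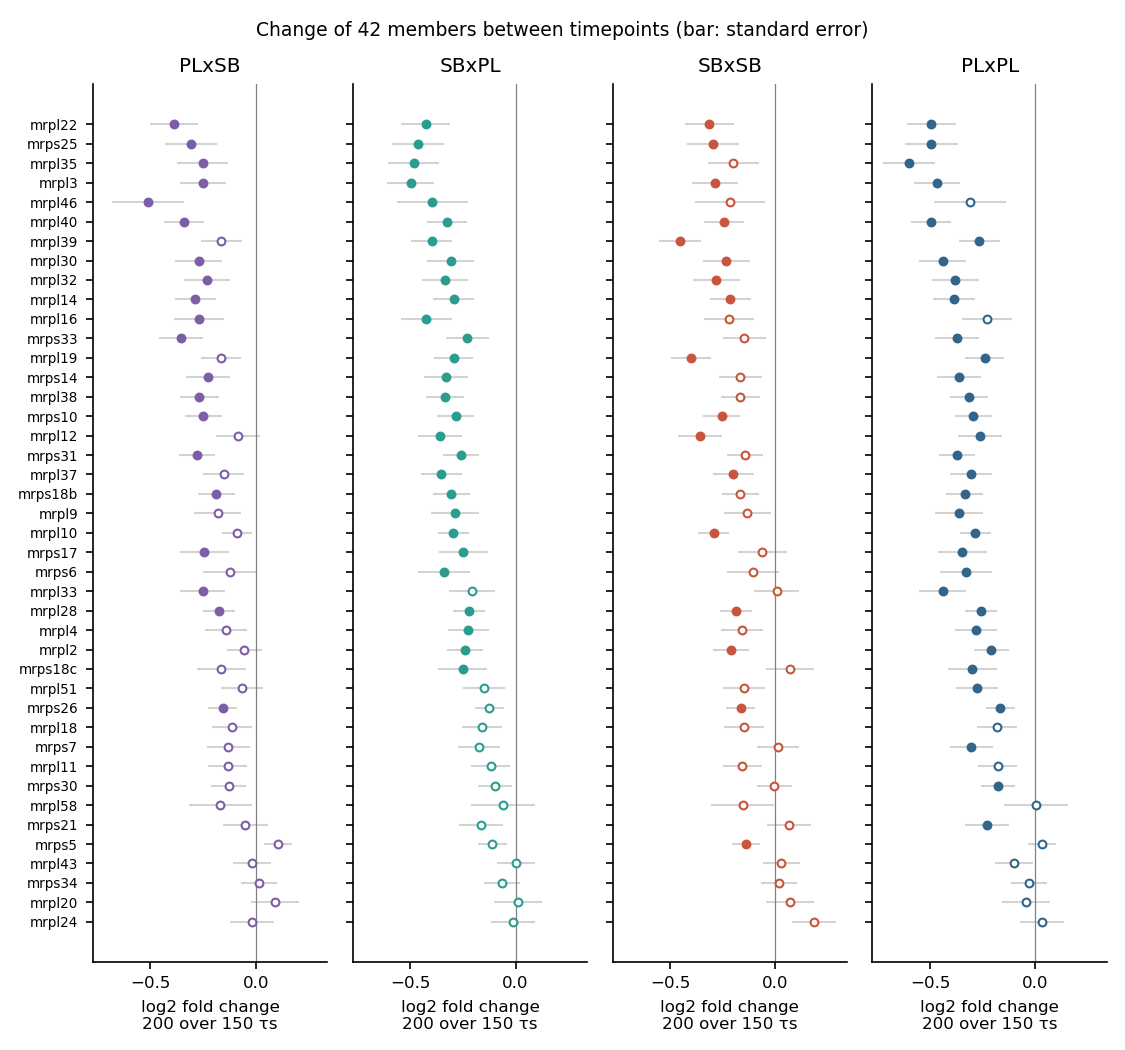
Log2 fold change of each of the 42 members, 200 over 150 τs (x axis), in the 4 cross types, with the standard error as a bar. Filled points passed the adjusted p of 0.1 and open points did not. All filled points lie left of 0, 20 in PLxSB, 28 in SBxPL, 17 in SBxSB and 32 in PLxPL.

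The fall involved both subunits. In PLxPL, 20 of the 28 large subunit genes and 12 of the 14 small subunit genes fell. In SBxSB, 13 of 28 and 4 of 14 fell. Among rows over 8 CPM, 39.8% fell in PLxPL and 38.1% in SBxSB, so the small subunit share in SBxSB was under this background. Genes with bacterial relatives and genes found only in mitochondria both fell in PLxPL, 22 of 28 and 10 of 14, with medians of -0.30 and -0.29. In SBxSB, 12 of 28 and 5 of 14 fell, and the second share was under that of rows over 8 CPM. Across the cross types, 9 members fell in all 4, 14 fell in 3, 7 in 2 and 5 in 1, and 7 were called in none. The 9 were mrpl3, mrpl14, mrpl22, mrpl28, mrpl30, mrpl32, mrpl40, mrps10 and mrps25. Beside them, 4421 of 17206 other rows with an average of at least 8 CPM fell in all 4. The share of members that fell in all 4 was thus not above that of such rows.

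The smallest p in PLxPL was that of mrpl40, a protein of the central protuberance, the crest of the large subunit. Its level in PLxPL was 25.02 to 33.84 CPM at 200 τs (median 29.6), against 35.2 to 47.3 CPM at 150 τs (median 40.5). No PLxPL embryo at 200 τs reached the lowest one at 150 τs. The log2 fold change was -0.50 ± 0.10 (standard error, edgeR, adjusted p = 1.4e-05), and in PLxSB it was -0.34 ± 0.09 (adjusted p = 0.00297). For mrpl35, also a protein of the large subunit, PLxPL embryos had 13.0 to 21.6 CPM at 200 τs (median 16.9), against 21.6 to 32.1 CPM at 150 τs (median 25.8). This was the largest change of any member in any cross type, -0.60 ± 0.12 (adjusted p = 3.57e-05), while in SBxSB it was -0.20 ± 0.12 (adjusted p = 0.186) and was not called.

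Near the exit tunnel, through which the new chain leaves, mrpl22 fell in all 4 cross types, by 0.39 in PLxSB, 0.43 in SBxPL, 0.31 in SBxSB and 0.49 in PLxPL on the log2 scale. In SBxPL, mrpl3 had 34.1 to 79.7 CPM at 200 τs (median 59.9), against 67.7 to 89.0 CPM at 150 τs (median 80.6), a log2 fold change of -0.50 ± 0.11 (edgeR, adjusted p = 0.000119). The groups overlapped, and the 3 embryos of family 3 were among the 4 lowest. The family means at 200 τs were 74.1, 56.8 and 40.5 CPM in families 1, 2 and 3. By p, mrpl10, mrpl39 and mrpl35 came next in SBxPL, and then the small subunit gene mrps25, at -0.46 ± 0.12 (adjusted p = 0.00155). Its family means at 200 τs were 25.99, 21.63 and 15.02 CPM.

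In SBxSB the members with the smallest p were mrpl39, mrpl19, mrpl10, mrpl12 and mrps10. For mrpl39, a large subunit protein found only in mitochondria, SBxSB embryos had 9.40 to 19.6 CPM at 200 τs (median 17.4), against 19.1 to 25.9 CPM at 150 τs (median 22.2). The log2 fold change was -0.45 ± 0.10 (edgeR, adjusted p = 0.000112), and only the highest embryo at 200 τs lay above the lowest one at 150 τs. The stalk of the large subunit is built from mrpl10 at its base and mrpl12, whose mammalian product also binds the mitochondrial RNA polymerase. Both fell in SBxSB, SBxPL and PLxPL and were not called in PLxSB. For mrpl12 the SBxSB values were 37.1 to 49.0 CPM at 200 τs (median 42.04), against 36.9 to 66.6 CPM at 150 τs (median 56.7), with a log2 fold change of -0.36 ± 0.10 (adjusted p = 0.00404), and in PLxSB the change was -0.09 ± 0.10 (adjusted p = 0.556). In PLxPL, mrps31 had a change of -0.37 ± 0.09 (adjusted p = 0.000214) and mrpl3 one of -0.47 ± 0.11 (adjusted p = 0.000289). In PLxSB, mrps33 of the small subunit head (-0.35 ± 0.10), mrps31 (-0.28 ± 0.09) and mrpl46 (-0.51 ± 0.17) were among the 5 clearest.

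The 7 members called in no cross type had mean log2 fold changes over the 4 cross types of -0.15 to 0.05. The means of mrpl11 and mrpl18 (-0.15 each) were as large as that of mrps26 (-0.15), which was called in 3. The changes of mrpl20 and mrpl24 lay between -0.04 and 0.18 in the 4 cross types, and those of mrpl43 and mrps34 between -0.10 and 0.03. The most highly read member, mrpl11, had log2 fold changes of -0.12 to -0.18, mrpl18 of the central protuberance had changes of -0.11 to -0.18, and mrpl58 had changes of -0.17 to 0.00. The gene mrps5, which sits where the mRNA enters, fell in SBxSB only (-0.14 ± 0.07, edgeR, adjusted p = 0.0961, called in 7 of 21 alternatives) and had a change of 0.11 ± 0.07 in PLxSB. The S18 paralogs differed in number of calls, with mrps18b falling in PLxSB, SBxPL and PLxPL and mrps18c in SBxPL and PLxPL, but the difference between them was not tested.

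**Figure D3:**
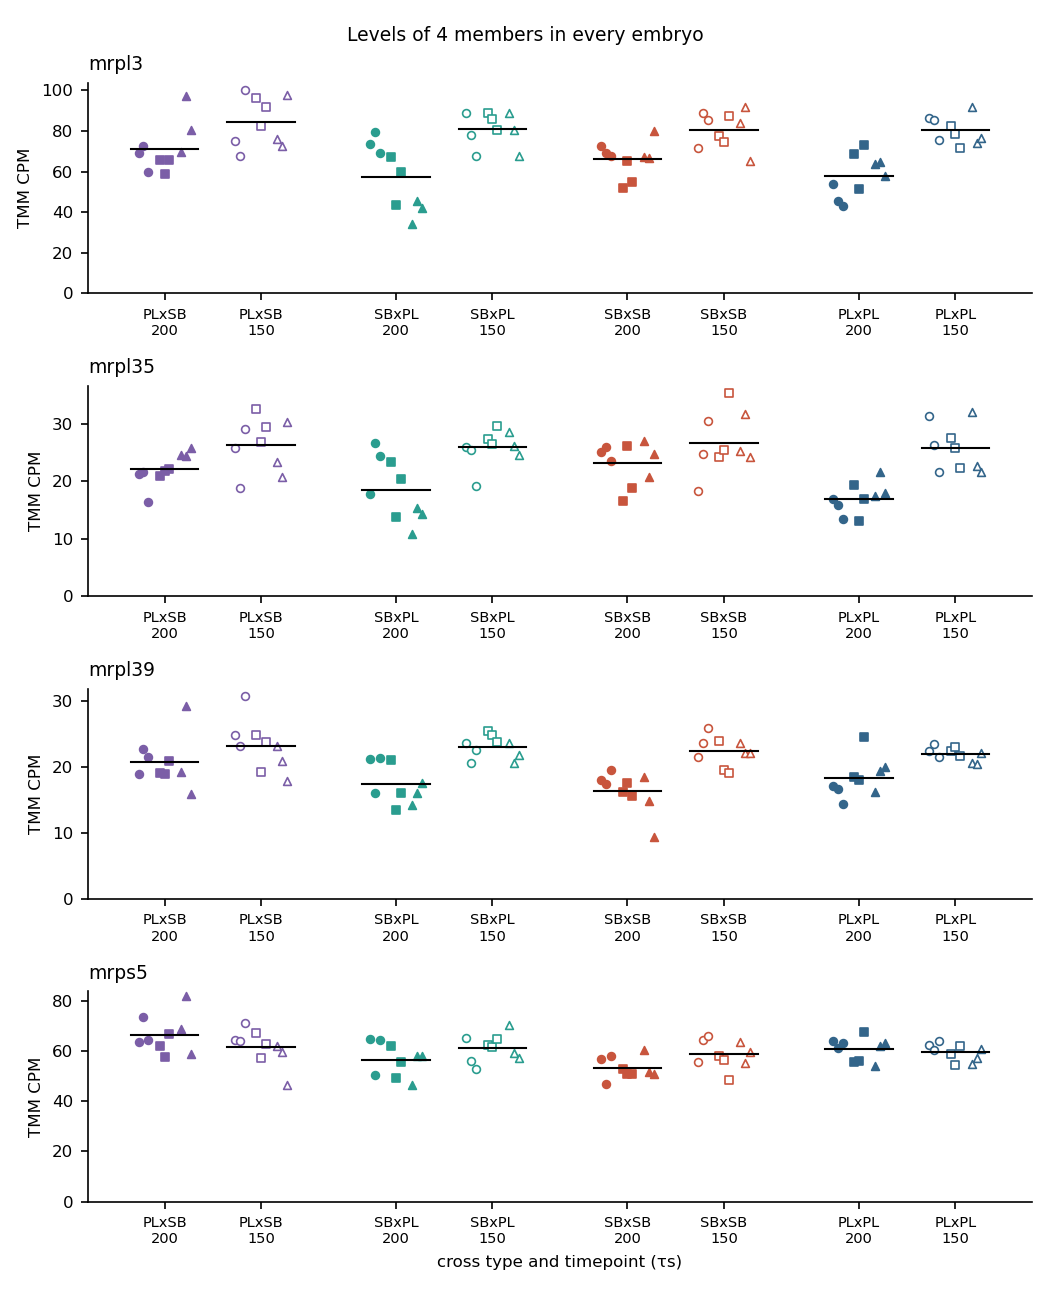
Level of mrpl3, mrpl35, mrpl39 and mrps5 in every embryo (TMM-scaled CPM, y axis from 0) by cross type and timepoint (x axis). Filled points are embryos at 200 τs and open points embryos at 150 τs; circles, squares and triangles are families 1, 2 and 3, and bars are group means. The 3 embryos of SBxPL family 3 at 200 τs are among the 4 lowest of their group for both mrpl3 and mrpl35.

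How many members fell depended on families. Without SBxPL family 3, 3 members (7.14%) fell in SBxPL in place of 28, beside 33.2% of rows over 8 CPM, and the median of the members was -0.11 in place of -0.27, as for those rows (-0.11). Without PLxSB family 2, 5 (11.9%) fell in PLxSB in place of 20, beside 32.3% of rows over 8 CPM. Without SBxSB family 1, 9 (21.4%) fell in SBxSB in place of 17, beside 30.6%, and without SBxSB family 2, 4 (9.52%) fell and 1 rose, beside 26.2% falling, with a median of -0.07. When the counts of the 3 siblings were summed, so that a family counted once, 26 members (61.9%) fell in PLxPL and 19 (45.2%) in SBxPL, beside 33.0% and 35.0% of rows over 8 CPM in that fit. In PLxSB 9 (21.4%) and in SBxSB 6 (14.3%) fell, under the 31.9% and 30.2% of those rows, and no member rose. With each family as a block, 33, 29, 20 and 16 members fell in that order. The change of the members was not shown to differ between the pure crosses. The difference of the SBxSB and PLxPL changes had a median of 0.14 over the members, 0 of 42 passed the edgeR test, 4 had an unadjusted p under 0.05, and 0.0347% of all rows were called.

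At 150 τs no member was called between any cross types by edgeR. In SBxSB against PLxPL the median log2 fold change of the members was 0.06, 0 members had an unadjusted p under 0.05, and 0.0372% of all rows were called. The hybrids gave the same count of 0 members, beside 0.0447% of all rows in PLxSB against SBxSB, 0.0223% in PLxSB against PLxPL, 0.159% in SBxPL against SBxSB, 0.124% in SBxPL against PLxPL and 0.102% in PLxSB against SBxPL. Grouped by parent, the background was 0% for the mother's morph and 0% for the father's morph, and for hybrids against pure crosses it was 0.0521%. Of these comparisons, embryos of SB against PL fathers had 2 members with an unadjusted p under 0.05, PLxSB against SBxSB had 1, and the rest had 0. DESeq2 also called 0 members in each of them.

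At 200 τs the pure crosses differed. In SBxSB, 12 members (28.6%) were higher than in PLxPL and 1 (2.38%) was lower, beside 8.7% of all rows higher and 8.85% lower, and 14.4% higher and 12.9% lower among rows over 8 CPM. The median log2 fold change of the members was 0.22, with 38 of 42 above 0, and that of all rows was -0.03. Of the 12, 7 were among the 14 small subunit genes and 5 among the 28 large subunit genes. The clearest was mrpl33, a small protein of the large subunit, with 11.999 to 16.265 CPM in SBxSB (median 13.7), against 7.90 to 13.0 CPM in PLxPL (median 10.4). Its family means were 13.5, 13.4 and 14.9 CPM in SBxSB and 8.89, 9.15 and 11.6 CPM in PLxPL, so that the families did not overlap, and the log2 fold change was 0.49 ± 0.11 (edgeR, adjusted p = 0.00253). The others named by p were mrpl35 (0.45 ± 0.12), mrpl40 (0.34 ± 0.10), mrps17 of the small subunit body (0.40 ± 0.12) and mrps7 of the head (0.34 ± 0.10). For mrps7, SBxSB embryos had 28.6 to 36.5 CPM (median 32.8), against 19.7 to 31.9 CPM in PLxPL (median 25.6).

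The member that went the other way was mrps5. It had 46.9 to 60.5 CPM in SBxSB (median 51.6), against 53.9 to 67.3 CPM in PLxPL (median 61.9), a log2 fold change of -0.19 ± 0.07 (edgeR, adjusted p = 0.0556). Without the 3 embryos of SBxSB family 3 that stand apart, 7 members were higher and 1 lower, beside 11.4% and 10.9% of rows over 8 CPM. Of the 3, only embryo A is at 200 τs, and its low chromosome held no member among its matched rows. Without the whole of that family 2 members (4.76%) were higher, beside 3.91%. Without PLxPL family 1, 8 were higher, beside 13.9%, and in sums over siblings 5 (11.9%) were higher and 0 lower, beside 4.85% and 5.47%.

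The embryos at 200 τs were also grouped by the father's morph, which sets 18 embryos against 18. With SB fathers (SBxSB and PLxSB), 21 of 42 members (50%) were higher than with PL fathers (SBxPL and PLxPL), and 0 were lower. Of all rows, 6.25% were higher and 2.75% lower, and among rows with an average over 8 CPM 12.1% were higher and 2.95% lower. All 42 members had a log2 fold change above 0, with a median of 0.21, against -0.01 over all rows. At 150 τs, where no member was called by father, 40 of the 42 were already above 0, with a median of 0.08. The members vary together, as given below, so these counts of signs are not 42 separate observations. The 21 were 14 of the 28 large subunit genes and 7 of the 14 small subunit genes. By the mother's morph, SB mothers (SBxSB and SBxPL) had 1 member higher and 2 lower than PL mothers (PLxSB and PLxPL), beside 3.69% of all rows higher and 6.7% lower, with 21 members above 0 and 21 below and a median of 0.00. Among rows over 8 CPM, 4.25% were higher and 11.1% lower with SB mothers. The comparison by father less the one by mother equals PLxSB against SBxPL. There edgeR called 1 member higher (2.38%) and 0 lower, beside 2.2% and 0.282% of rows over 8 CPM. The median of the members was 0.18, with 40 of 42 above 0 and 20 at an unadjusted p under 0.05. For the other members a difference between the effects of father and mother was not shown.

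**Figure D4:**
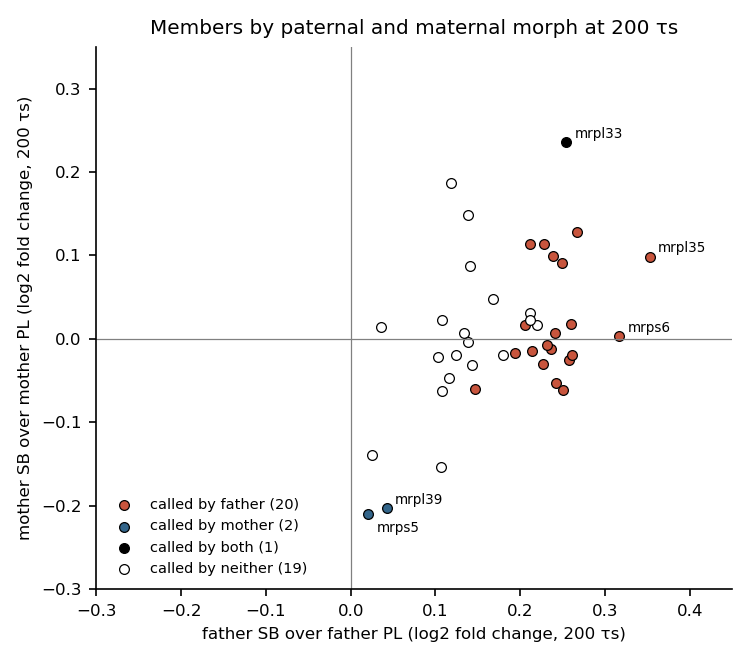
Log2 fold change at 200 τs by the father's morph (SB over PL, x axis) and by the mother's morph (SB over PL, y axis) for the 42 members. All points lie right of 0 on the x axis, and on the y axis 21 lie above and 21 below. Red points were called by father, blue by mother and the black point, mrpl33, by both.

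The largest difference by father was that of mrpl35. Its values were 16.6 to 27.0 CPM in SBxSB (median 24.7) and 16.4 to 25.7 CPM in PLxSB (median 21.8), against 10.9 to 26.7 CPM in SBxPL (median 17.7) and 13.0 to 21.6 CPM in PLxPL (median 16.9). The log2 fold change by father was 0.35 ± 0.09 (edgeR, adjusted p = 0.0187), and by mother it was 0.10 ± 0.09 (adjusted p = 0.565). Family means were 24.8, 20.5 and 24.1 CPM in SBxSB and 19.7, 21.6 and 24.9 CPM in PLxSB, against 22.9, 19.2 and 13.4 CPM in SBxPL and 15.4, 16.4 and 19.0 CPM in PLxPL, so that SBxPL family 1 lay among the families of SB fathers. The platform protein mrps6 differed by 0.32 ± 0.09 (adjusted p = 0.0295) and mrps18b by 0.24 ± 0.06 (adjusted p = 0.0257). For mrps18b, group medians were 51.6 CPM in SBxSB and 53.4 CPM in PLxSB, against 41.3 CPM in SBxPL and 42.4 CPM in PLxPL. Family means of mrps18b in SBxPL were 52.7, 46.6 and 37.0 CPM, so that family 1 lay among the SBxSB families (50.4, 47.6 and 56.0 CPM). The same-mother comparisons are the parts that the comparison by father averages, so they add no separate evidence to it. PLxSB against PLxPL had 42 of 42 members above 0 (median 0.24), and SBxPL against SBxSB had 39 of 42 below 0 (median -0.16). Neither had a member that passed the edgeR test, with 27 and 8 members at an unadjusted p under 0.05, beside 0.38% and 0.0794% of all rows called.

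The number of calls by father depended on single families. In sums over siblings, 0 members passed, beside 0.0471% of all rows higher (smallest adjusted p = 0.22 in edgeR, 27 members at an unadjusted p under 0.05), although all 42 stayed above 0 with a median of 0.21. In such sums all 42 were above 0 at 150 τs too. Without SBxPL family 3 or without PLxPL family 1, 0 members were called, with medians of 0.13 and 0.19, and without SBxSB family 3 or PLxSB family 3, 1 or 2 were called. Without SBxPL family 1, 33 were called. Without the 3 embryos that stand apart, of which only embryo A of SBxSB family 3 is at 200 τs, 14 were called.

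An embryo score was taken as the median over the 42 members of the log2 CPM less the member's mean over all libraries. At 200 τs the mean score was 0.00 ± 0.16 in PLxSB, -0.17 ± 0.27 in SBxPL, -0.01 ± 0.13 in SBxSB and -0.21 ± 0.14 in PLxPL (SD, n = 9 each). At 150 τs it was 0.17 ± 0.23, 0.09 ± 0.14, 0.14 ± 0.15 and 0.07 ± 0.12 in the same order. The 3 embryos of SBxPL family 3 at 200 τs had scores of -0.61 to -0.36, while SBxPL family 1 had scores of 0.00 to 0.19. A time index was set from 6688 other rows with over 8 CPM that were called in the same direction in all 4 cross types, with 0 at the mean of the groups at 150 τs and 1 at the mean of those at 200 τs. It averaged 1.22 in SBxPL family 3 and 1.20 in PLxPL family 1 at 200 τs, the highest of the 12 families, and 0.73 in SBxSB family 3, the lowest. Its median at 200 τs was 0.99 in PLxSB and 0.90 in SBxSB, against 1.08 in SBxPL and 1.01 in PLxPL. The part of this index in the difference by father was not tested.

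**Figure D5:**
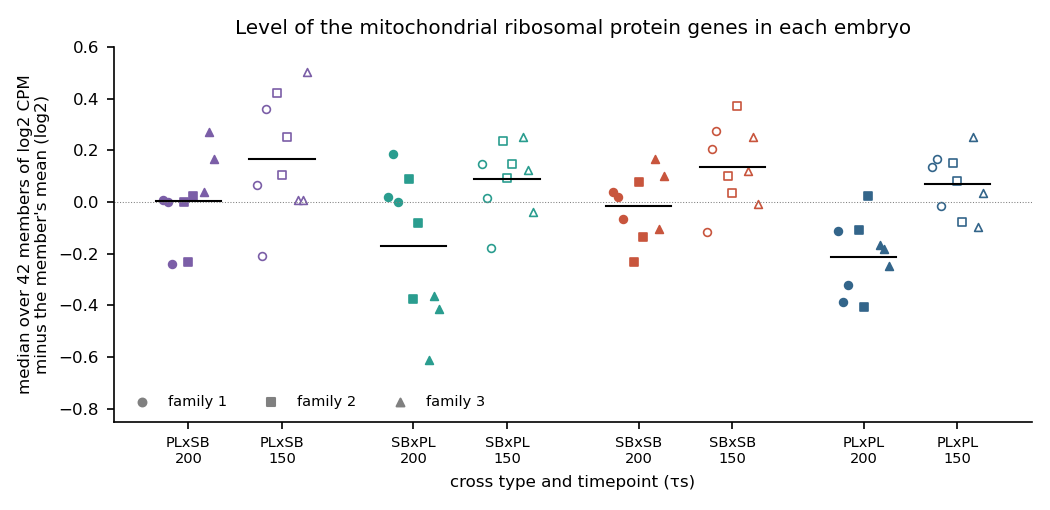
Embryo score of the 42 members (median log2 CPM relative to each member's mean, y axis) in all 72 embryos by cross type and timepoint (x axis). Filled points are embryos at 200 τs and open points embryos at 150 τs, markers show the family, and bars are group means. The triangles of SBxPL at 200 τs, family 3, lie at -0.61 to -0.36, and group means at 200 τs are 0.00 and -0.01 with SB fathers and -0.17 and -0.21 with PL fathers.

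The share of members called lower by mother (4.76%) was under the 6.7% of all rows and 11.1% of rows over 8 CPM. The 2 members were mrps5 and mrpl39. At 200 τs both were lower with SB than with PL mothers, mrps5 by -0.21 ± 0.05 (log2, edgeR, adjusted p = 0.00406) and mrpl39 by -0.20 ± 0.07 (adjusted p = 0.0651), and by father they differed by 0.02 ± 0.05 and 0.04 ± 0.07. Both were also the members called in PLxSB against SBxSB, a comparison that shares its embryos with the one by mother. There 4.76% of the members were higher, beside 3.06% of all rows and 5.1% of rows over 8 CPM. None was lower, beside 1.25% of all rows. For mrps5, PLxSB embryos had 57.4 to 81.9 CPM (median 64.2), against 46.9 to 60.5 CPM in SBxSB (median 51.6), with family means of 67.0, 62.0 and 69.8 CPM in PLxSB and 53.9, 51.5 and 54.3 CPM in SBxSB. The families did not overlap, and the log2 fold change was 0.32 ± 0.07 (adjusted p = 0.00403). For mrpl39 the change was 0.34 ± 0.10 (adjusted p = 0.0435), with 16.0 to 29.2 CPM in PLxSB (median 19.2), against 9.40 to 19.6 CPM in SBxSB (median 17.4). Between the reciprocal hybrids, mrps5 was the only member called in PLxSB against SBxPL (0.23 ± 0.07, adjusted p = 0.0928), beside 1.12% of all rows higher and 0.36% lower. This comparison is the difference of those by father and by mother, so it adds no separate evidence to them. The call of mrps5 in it was lost in 13 of 20 alternatives. Without SBxPL family 1, 24 members were higher in PLxSB, beside 6.54% of all rows. The call of mrpl39 by mother held in 9 of 20 alternatives. In contrast, mrpl33 was higher with SB mothers (0.24 ± 0.08, adjusted p = 0.0515) as well as with SB fathers (0.25 ± 0.08, adjusted p = 0.0432). In sums over siblings, mrps5 alone kept its call by mother (adjusted p = 0.0891).

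No member was called in SBxPL against PLxPL at 200 τs (median 0.03, 1 member at an unadjusted p under 0.05, 0.154% of all rows called by edgeR). Hybrids against pure crosses likewise gave 0 members (2 at an unadjusted p under 0.05), beside 0.0124% of all rows.

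Within groups, the members varied together. After the group means were removed, the median Pearson correlation between 2 of the 40 members with at least 8 CPM was 0.67 over the 72 embryos, and the median correlation of a member with the mean of the others was 0.87. Of the 40 members, 87.5% were above 0.5 in this measure, against 21.0% of 17206 other rows, whose median was 0.02. The points share families, and the members of an embryo share its library, so these values are a description. The members outside this block were mrpl19 (-0.07), mrpl12 (0.12), mrps5 (0.26), mrpl39 (0.29) and mrps26 (0.40). Of these 5, mrps5 and mrpl39 are those that were called lower with SB mothers at 200 τs. The log2 fold changes by mother of mrpl12 (-0.23 to -0.09) and mrpl19 (-0.17 to -0.07) were also below 0 in all 20 alternatives. They were called in 2 and 0 of these. Those of mrps26 ran from -0.03 to 0.08. Inside the block, mrpl10 was below 0 in all 20 as well (-0.09 to -0.01), so this direction is not particular to members outside it.

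Expression variability was described by the LCV, the rank of a gene's coefficient of variation over the 9 embryos among the 500 rows nearest in mean expression, from 0 (least variable) to 100. Of the members, 41 had a mean scaled count of at least 100 in every group. At 200 τs their median LCV was 56.1 in PLxSB, 83.0 in SBxPL, 50.9 in SBxSB and 43.1 in PLxPL, and at 150 τs it was 62.3, 61.9, 49.7 and 49.3 in the same order, beside 50.1 over all 17044 rows in each group. In SBxPL at 200 τs, 39 of the 41 members were at or above 50, with a median coefficient of variation of 20.9%, against 14.003% for all rows. The members vary together, as given above, so this count is not 41 separate observations. Without SBxPL family 3 the median was 73.0, and with deviations taken from family means it was 73.6. The least variable members over all groups were mrps5 (mean LCV 27.9), mrps26 (28.5) and mrpl10 (35.5), and the most variable were mrps6 (78.0), mrps25 (72.6) and mrpl22 (72.1).

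Single embryos of SBxSB family 3 carried low values of members that lie on the same chromosome. In embryo B at 150 τs the rows of the chromosome that holds mrpl9, mrpl24 and mrps21 had a median of 54.4% of the other embryos of the group, with 24 of 25 rows below them. There mrpl24, a protein of the tunnel rim, had 26.5 CPM, against a median of 56.8 CPM in the other 8 SBxSB embryos at 150 τs. For mrpl9 the values were 15.9 against 29.6 CPM, and for mrps21 30.3 against 53.3 CPM. The chromosome of mrps18c stood at 55.7% in the same embryo and at 53.9% in embryo C, each with 75 of 77 rows below the others, and mrps18c had 16.4 CPM in embryo C, against 32.6 CPM. Embryo C at 150 τs and embryo A at 200 τs each had another chromosome at 50.7% and 54.4%, with no member among its matched rows. Without these 3 embryos the SBxSB change of mrpl9, 200 over 150 τs, was -0.27 (edgeR, adjusted p = 0.0568) in place of -0.13, that of mrpl24 was 0.06 in place of 0.18, that of mrps18c was -0.12 in place of 0.07 and that of mrps21 was -0.04 in place of 0.06, and 20 members fell in place of 17.

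Other genes of mitochondrial translation also fell with time. Of 9 translation factors, 6 fell in PLxPL, 7 in SBxPL, 6 in PLxSB and 5 in SBxSB, and none rose. They included gfm1, an elongation factor that moves the ribosome along, mrrf, which recycles it, and tsfm, which recharges the factor that brings the tRNA. Of 11 genes of ribosome assembly, 10 fell in PLxPL, 10 in SBxPL, 7 in PLxSB and 8 in SBxSB, with medians of -0.38, -0.41, -0.25 and -0.25. Of all rows, 23.8% fell in PLxPL, 24.6% in SBxPL, 21.1% in PLxSB and 22.6% in SBxSB. Of rows over 8 CPM, 39.8%, 41.8%, 35.5% and 38.1% fell in that order. A further subunit gene outside the name rule, ptcd3, fell in all 4 cross types. By father at 200 τs, 3 of the 9 factors (mtif3, mtrf1l and tsfm) and 3 of the 11 assembly genes (gtpbp10, malsu1 and ybey) were higher with SB fathers, and none was lower. Of all rows 6.25%, and of rows over 8 CPM 12.1%, were higher. Of 6 genes of mitochondrial DNA replication and transcription 0 were higher by father. Of 19 of the respiratory chain (complexes I and II only) and ATP synthase 2 were. By mother, 2 of the 9 factors (gfm1 and tufm) and 0 of the 11 assembly genes were lower with SB mothers. So were 2 of the 6 genes of mitochondrial DNA replication and transcription and 2 of the 19 of the respiratory chain and ATP synthase. None of these lists had a gene higher with SB mothers. Of all rows 6.7%, and of rows over 8 CPM 11.1%, were lower. These lists hold few genes, and their differences from the backgrounds were not tested.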

How the data were processed

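Whole embryos gave 72 mRNA libraries. Per the methods, the sequencing company filtered the reads. The authors aligned them with STAR to a Salvelinus genome and counted fragments per gene with featureCounts. They deposited these raw counts with no normalization. Versions and the use of strand are not given in the sources used here, so overlapping or antisense genes and the S18 paralogs may share reads. Rows with at least 10 reads were fitted in R 4.3.3 with edgeR 4.0.16 (TMM factors, quasi-likelihood F-test, 1 mean for each of 8 groups), with Benjamini-Hochberg adjustment over 40311 rows and calls at an adjusted p under 0.1. The test was also tried on simulated counts, drawn with no family effect, so that trial does not bear on siblings. The 3 siblings of a family are not independent, so p-values over 9 embryos measure the spread between embryos more than between families, and sums over siblings were fitted as an alternative. Other alternatives were DESeq2 1.42.0, its size factors, other filters, blocks for family and embryo letter, a threshold of 0.05 and each family left out. In the labels the embryo letter is also a batch number. The authors describe 3 batches for the small RNA libraries, and the mRNA libraries as sequenced together. Over 108 pairs of siblings at different timepoints the mean correlation of deviations was 0.07, against -0.03 for other families of the cross type. For embryos with the same letter it was 0.02, against -0.01. Family pairs the timepoints through shared parents, whereas the letter is only a label of embryo and batch. Scores used log2(CPM + 0.5). Named members were the 5 called with the smallest p per direction for time, SBxSB against PLxPL and PLxSB against SBxSB at 200 τs. For other comparisons they were the 3 with the smallest p. All were named where 5 or fewer were called. The extremes of level and LCV were added, and mrpl12, mrps12 and mrpl58, of which mrps12 had no row under that symbol. Members and lists were chosen with earlier results of these data known. Kinases, binding proteins and assembly factors that matched a list by name were left out after the rows were seen. The list of cytosolic ribosomal protein genes is not reported here.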

Additional observations from a re-analysis of the deposited data

Results flagged for a closer look

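For 23 named members and the embryo score, the highest and lowest embryo of each group were compared with the nearest other embryo (Dixon's ratio above its critical value). This marked 12 of 192 groups, where chance marks about 1 in 20. In PLxSB family 3, embryo B at 200 τs was highest for mrpl10 (52.09 CPM, next 41.62) and mrps10 (49.26, next 36.99) and lowest for mrps26 (29.98, next 37.06). Embryo C of that family was lowest for mrpl12 at 200 τs (36.14, next 45.43) and another embryo C was lowest for mrpl19 at 150 τs (20.2, next 31.15). In PLxPL family 2, embryo C at 200 τs was highest for mrps18c (36.86, next 29.13) and mrps6 (30.63, next 23.77), and in PLxPL family 1 embryo B at 150 τs was highest for mrps17 (29.74, next 25.64). In SBxPL at 150 τs, embryo C of family 1 was lowest for mrpl35 (19.2, next 24.47) and embryo A of family 3 was highest for mrpl58 (9.272, next 7.353). In SBxSB, embryo C of family 2 was lowest for mrpl19 at 150 τs (23.94, next 31.25), and embryo C of family 3 was lowest for mrpl39 at 200 τs (9.402, next 14.84).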

How the results depend on the processing

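Under the alternatives, the counts of called members in the 9 comparisons with calls stayed within 1.5 times in 145 cases and did not in 48. In the 14 comparisons with none they stayed at 0 in 293 cases and did not in 2. The medians (465) moved by less than the pooled SD of the embryo scores within groups. The median LCV values (136) moved by less than the SD of the LCV over the members. These limits are wide, since the SBxPL time median of -0.11 without SBxPL family 3, in place of -0.27, counted as unmoved. So did a median LCV of 66.7 in SBxSB at 200 τs with 1 family left out, in place of 50.9. Named members kept their call in 656 cases, lost it in 64 and reversed in 0. At an adjusted p under 0.05, the count was 10 for time in PLxSB, 8 for SBxSB against PLxPL at 200 τs, 12 by father, 1 by mother and 0 for PLxSB against SBxPL. In sums over siblings it was 9 for time in PLxSB, 6 for time in SBxSB, 5 for SBxSB against PLxPL, 0 by father, 1 by mother, 0 for PLxSB against SBxSB and 0 for PLxSB against SBxPL. With only the groups compared, it was 21 for SBxSB against PLxPL, 1 for PLxSB against SBxSB and 0 for PLxSB against SBxPL. With rows of at least 1 read, it was 8 for time in SBxSB and 0 for PLxSB against SBxPL, which was also 0 with at least 1 CPM in 9 libraries. Without the 3 embryos of SBxSB family 3, an alternative chosen after seeing the data, SBxSB against PLxPL gave 8. The causes were not tested. With 1 family left out in turn, the count was 5 to 22 for time in PLxSB, 3 to 39 in SBxPL, 5 to 17 in SBxSB and 22 to 35 in PLxPL. At 200 τs it was 2 to 15 for SBxSB against PLxPL, 0 to 33 by father, 1 to 6 by mother, 0 to 2 for PLxSB against PLxPL, 0 to 24 for PLxSB against SBxPL, 1 to 2 for PLxSB against SBxSB and 0 to 20 for SBxPL against SBxSB. With the family as a block, time gave 20 in PLxSB, 29 in SBxPL, 16 in SBxSB and 33 in PLxPL, and with the letter as a block 19, 28, 17 and 32. The letter block gave 24 by father and 14 for SBxSB against PLxPL. DESeq2 gave no adjusted p for 1 member in the difference of the time changes. Counting error limits mrpl46 most.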

Other observations

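The list of nuclear genes of the respiratory chain and ATP synthase held genes of complexes I and II and of ATP synthase. No gene of complex III or IV was found by symbol. These 19 genes had shares of rising genes near or under those of all rows. Beside rows over 8 CPM, their shares of rising genes were higher in PLxPL, SBxPL and PLxSB and lower in SBxSB. Their shares of falling genes were under those of rows over 8 CPM in all 4 cross types. With 19 genes, these differences were not tested. Of 19 measured, 5 rose and 2 fell in PLxPL, 5 rose and 2 fell in SBxPL, 4 rose and 0 fell in PLxSB and 3 rose and 1 fell in SBxSB, with medians of 0.07, 0.04, 0.13 and 0.09 (log2, 200 over 150 τs). Of all rows, 25.5%, 24.9%, 23.2% and 23.3% rose in that order. Of rows over 8 CPM, the range of these genes, 21.9%, 19.8%, 19.3% and 18.9% rose, and 39.8%, 41.8%, 35.5% and 38.1% fell. The gene sdhc, a subunit of complex II, rose in all 4 cross types. Of 6 genes of mitochondrial DNA replication and transcription, 5 fell in PLxPL, 5 in SBxPL, 3 in PLxSB and 5 in SBxSB, and none rose. Beside them 23.8%, 24.6%, 21.1% and 22.6% of all rows fell, and 39.8%, 41.8%, 35.5% and 38.1% of rows over 8 CPM. Of the 6 genes, polrmt, the mitochondrial RNA polymerase, and tfam, which packs the mitochondrial DNA, fell in all 4 cross types. The differences between these lists and the members were not tested. In PLxPL family 1, embryo C at 150 τs had 2.79 CPM of mrpl58, against a median of 7.58 CPM in the other embryos of the group.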
